A study of Sus scrofa with 36 samples.

Results

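Transcripts of 5 collagen chains and of 3 enzymes that act on collagen were followed in the neonatal pig heart. The 8 genes were taken by name from the gene table of batch cd. They are COL5A1, COL6A1, COL12A1, COL15A1 and COL16A1, the lysyl hydroxylases PLOD1 and PLOD2, and the gelatinase MMP2. They make up 8 of the 9815 genes of that table, which covers chromosomes 1, 2, 6 and 13. A gene was tested where 3 or more of the 12 libraries held 10 counts or more, which all 8 genes did, among 5526 genes in all.

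The study asked how RNAs of the pig heart change between postnatal day 1 (P1) and P3, P7 and P28. Hearts of domestic Yorkshire pigs of both sexes, untreated and normally fed, were rinsed and frozen as tissue, so each library holds RNA of myocytes and nonmyocytes together. Batch cd, sequenced at CD Genomics as total RNA depleted of rRNA, holds 3 libraries at each of P1, P3, P7 and P28, each listed in the labels as a sample of its own, and the study's methods describe separate animals. No genotype or agent differed between the ages, so age is the comparison throughout.

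Collagens are triple-helical proteins that give the cardiac interstitium its tensile strength. Fibrillar chains such as collagen V set fibril diameter, collagen VI forms beaded microfilaments around cells, and collagens XII, XV and XVI bind to fibrils or to the basement membrane zone. Lysyl hydroxylases modify lysines of the new chains in the endoplasmic reticulum, which prepares them for sugar attachment and cross-links, whereas matrix metalloproteinases cleave finished or denatured collagen. Fibroblasts and cells of the vessel wall are known as the main sources of interstitial collagen in the heart.

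Total counts ran from 8887176 to 14883849 per library, and the 8 genes took 0.187% to 0.523% of them, with 674 to 19010 counts for a gene in a library. Levels are CPM, the counts of a gene scaled to a common library size by TMM, and the libraries of each age are numbered 4, 5 and 6 as in the table. Library 5 of P3 stood farthest from the other libraries of its age (root mean square difference 0.682 on the log2 scale over all genes tested, against 0.385 to 0.578 for the other 11 libraries) and held the highest COL5A1, COL6A1 and COL16A1 of all 12. Calls of the 8 genes that change without it are given with and without it. Cardiomyocyte markers were present at 61380 to 81970 CPM summed over the 6 of 13 that had a row, so the tissue label held. All adjusted p-values below are from edgeR's quasi-likelihood test with Benjamini-Hochberg adjustment over the 5526 genes, with an adjusted p under 0.05 as the call, and "rose" and "fell" are used only for calls.

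Of the 8 genes, 5 differed between the 4 ages in edgeR's test over all ages, namely COL12A1, COL15A1, PLOD1, PLOD2 and MMP2, with adjusted p of 0.000898 (PLOD1) to 0.00996 (MMP2). COL5A1 (adjusted p = 0.0743), COL16A1 (0.0624) and COL6A1 (0.405) were not called in this edgeR test. The test called 21.4% of all genes tested. It called 7 of the 8 without library 5 of P3, with COL5A1 (adjusted p = 0.0178) and COL6A1 (0.0244) added, where 30.9% of all genes were called. The age means of the 5 genes called with all libraries took different courses, although most steps between neighbouring means were not called. By mean, COL12A1 and both lysyl hydroxylases were highest at P1, COL15A1 and MMP2 were highest at P7, and all 5 were lowest at P28. The PLOD2 libraries of P3 and P28 overlapped. Their difference was not called (log2 −0.19, edgeR adjusted p = 0.418) in a comparison added after the order was seen.

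**Figure D1:**
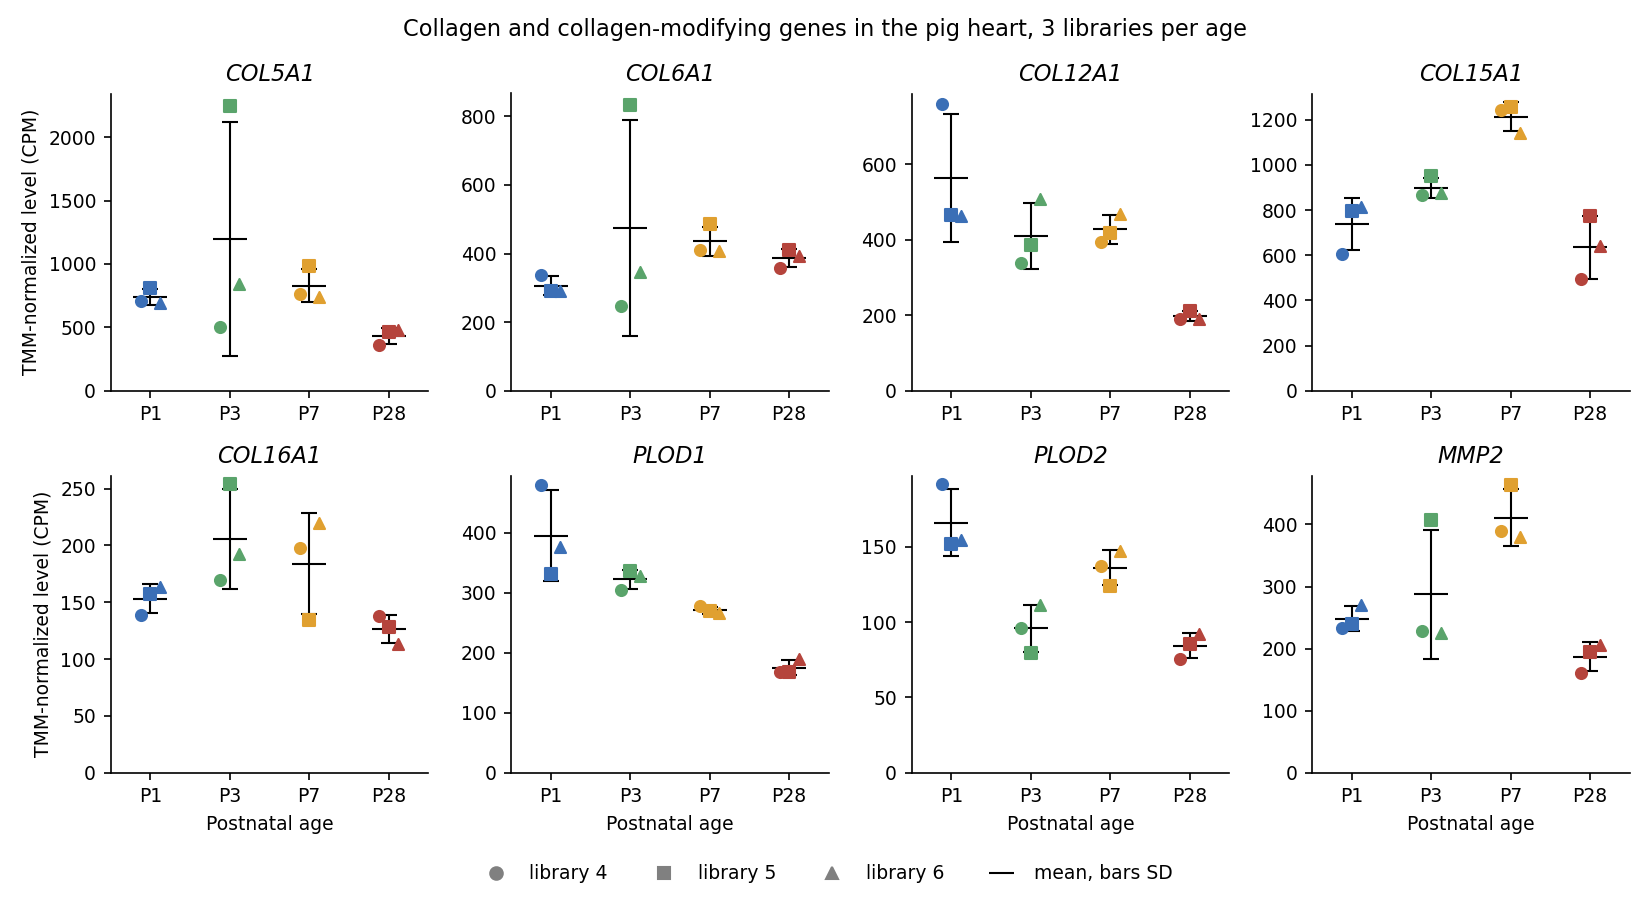
TMM-normalized level (CPM, linear axis from 0) of each of the 8 genes at P1, P3, P7 and P28 in the 3 libraries per age. Symbols mark libraries 4, 5 and 6, the horizontal line is the mean and the bars are the SD. COL12A1, PLOD1 and PLOD2 have their highest mean at P1, COL15A1 and MMP2 at P7, and the square at P3 (library 5) stands far above the other P3 libraries for COL5A1 and COL6A1.

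COL12A1 encodes the chain of collagen XII, a fibril-associated collagen with interrupted triple helices (FACIT). The gene (ENSSSCG00000004484) lies on chromosome 1 from 90744429 to 90875118 as the table gives it. Its level in libraries 4, 5 and 6 was 759, 465 and 464 CPM at P1, 338, 386 and 507 CPM at P3, 395, 419 and 468.9 CPM at P7, and 189.5, 212 and 191 CPM at P28. Each P28 library lay below every earlier library, while the P1, P3 and P7 libraries overlapped. From P1 to P28 the level fell 2.85-fold (log2 fold change −1.51, SE 0.20, edgeR adjusted p = 0.000623). From P7 to P28 it fell 2.16-fold (log2 −1.11, SE 0.20, edgeR adjusted p = 0.00272). The 3 earlier age means were 563 ± 169.7, 410.3 ± 87.3 and 428 ± 37.6 CPM (SD, n = 3), and edgeR made no call from P1 to P7 (adjusted p = 0.35) or from P3 to P7 (adjusted p = 0.906).

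COL16A1 encodes another FACIT chain and lies on chromosome 6 from 88177831 to 88242747 (ENSSSCG00000003603). It was the lowest of the 5 collagens per length at P1, P3 and P7, although not at P28. Libraries 4, 5 and 6 held 139, 157 and 163 CPM at P1, 169, 254 and 193 CPM at P3, 198, 134 and 219.9 CPM at P7, and 138, 129 and 114 CPM at P28. The P3 libraries all exceeded the P1 libraries, and the P28 libraries all lay below the P1 libraries, yet no comparison with P1 was called. The difference from P7 to P28 was −0.54 on the log2 scale (SE 0.19, edgeR adjusted p = 0.0663) with a 95% interval of −0.97 to −0.10. That contrast was called without library 5 of P3 (log2 −0.54, adjusted p = 0.0284) and without library 5 of P7 (log2 −0.73, adjusted p = 0.0201).

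COL15A1 encodes the chain of collagen XV, a multiplexin at the outer face of muscle and capillary basement membranes. It lies on chromosome 1 from 240653017 to 240829188 (ENSSSCG00000005380). In libraries 4, 5 and 6 COL15A1 was at 607, 795 and 813 CPM at P1, 868, 951 and 876 CPM at P3, 1244, 1255 and 1139 CPM at P7, and 494, 772 and 641 CPM at P28. The 3 libraries of P3 lay above those of P1, and those of P7 lay above those of P3, without overlap. COL15A1 rose 1.64-fold from P1 to P7 (log2 0.72, SE 0.16, edgeR adjusted p = 0.0441). It fell 1.91-fold from P7 to P28 (log2 −0.93, SE 0.16, edgeR adjusted p = 0.00239), back to a level whose libraries overlapped those of P1 (adjusted p = 0.39). The rise to P7 was just past the threshold. In 7 of the 12 fits that left out 1 library (each library of P1 and of P7, and library 6 of P28) its adjusted p was 0.0603 to 0.149, with log2 fold changes of 0.59 to 0.78 in edgeR. The fall after P7 was called in all 12 of those fits, with an adjusted p of at most 0.0119.

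COL5A1 encodes the main chain of collagen V, the fibrillar collagen built into collagen I fibrils. It lies on chromosome 1 from 273971971 to 274085426 (ENSSSCG00000005751). In the same order of libraries its level was 711, 810.3 and 695 CPM at P1, 505, 2246 and 844 CPM at P3, 763, 982 and 743 CPM at P7, and 363, 461 and 481 CPM at P28. The P3 value of library 5 exceeded every other library at any age, and the P3 mean of 1198 ± 923.4 CPM (SD, n = 3) had a coefficient of variation of 77.1%. All P28 libraries lay below all others. The differences from P1 to P28 (log2 −0.76, SE 0.39, edgeR adjusted p = 0.2) and from P7 to P28 (log2 −0.93, SE 0.39, edgeR adjusted p = 0.114) were not called with all libraries. Without library 5 of P3, which enters the shared estimate of the spread, COL5A1 fell in both (log2 −0.77, adjusted p = 0.0146, and log2 −0.94, adjusted p = 0.00486, edgeR). The P7 to P28 contrast was also called without library 4 of P3 (adjusted p = 0.0357). COL5A1 at P3 itself depended on library 5: the P1 to P3 difference was 0.70 with it and −0.13 without it, and neither was called.

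COL6A1 encodes a chain of collagen VI, which forms the beaded microfilaments next to cell surfaces. It lies on chromosome 13 from 208295240 to 208313127 (ENSSSCG00000022506). COL6A1 was at 337, 292 and 291 CPM at P1, 246, 833 and 345 CPM at P3, 412, 485 and 409 CPM at P7, and 359, 409 and 392 CPM at P28. COL6A1 was the only one of the 8 genes whose P28 libraries all lay above its P1 libraries, but the difference was not called (log2 0.33, SE 0.32, edgeR adjusted p = 0.517). From P7 to P28 its log2 difference was −0.17 with a 95% interval of −0.91 to 0.57, too wide to place it among the genes that fell or apart from them. Without library 5 of P3, COL6A1 rose from P1 to P7 (log2 0.51, adjusted p = 0.0471), against 0.50 and an adjusted p of 0.499 with it.

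PLOD1 encodes lysyl hydroxylase 1, which acts on lysines of the collagen triple helix. It lies on chromosome 6 from 71988459 to 72021804 (ENSSSCG00000003433). PLOD1 was at 479.7, 331 and 376 CPM at P1, 305, 336 and 328 CPM at P3, 278, 269 and 266 CPM at P7, and 167, 169 and 189 CPM at P28. PLOD1 was the only gene of the 8 whose means went down at every step, from 395 ± 76.3 through 323 ± 16.1 and 271 ± 6.12 to 175 ± 12.2 CPM (SD, n = 3), and the P3, P7 and P28 libraries did not overlap one another. It fell 2.26-fold from P1 to P28 (log2 −1.18, SE 0.14, edgeR adjusted p = 0.000316) and 1.55-fold from P7 to P28 (log2 −0.63, SE 0.13, edgeR adjusted p = 0.00648). The earlier steps, P1 to P3 (log2 −0.29, adjusted p = 0.321) and P3 to P7 (log2 −0.25, adjusted p = 0.324), were not called by edgeR. The difference from P1 to P7 was at the edge of the threshold (log2 −0.54, SE 0.13, edgeR adjusted p = 0.0552). It was called without library 4 of P3 (adjusted p = 0.0483) or library 5 of P3 (0.0322).

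PLOD2 encodes lysyl hydroxylase 2, which acts on the telopeptide lysines that form hydroxylysine-derived cross-links. It lies on chromosome 13 from 86401244 to 86513105 (ENSSSCG00000011689). PLOD2 was at 191, 152 and 154 CPM at P1, 96.4, 79.6 and 111 CPM at P3, 137, 124 and 147 CPM at P7, and 75.6, 85.2 and 92.0 CPM at P28. PLOD2 was the only gene of the 8 in which every P3 library lay below every P1 and every P7 library. It fell 1.97-fold from P1 to P28 (log2 −0.98, SE 0.15, edgeR adjusted p = 0.00153) and 1.62-fold from P7 to P28 (log2 −0.69, SE 0.15, edgeR adjusted p = 0.00728). The dip itself did not pass adjustment, with log2 −0.79 from P1 to P3 (SE 0.15, unadjusted p = 0.000161, edgeR adjusted p = 0.0687) and log2 0.51 from P3 to P7 (SE 0.15, edgeR adjusted p = 0.098). Both sides of the dip were called without library 6 of P3 (adjusted p = 0.0433 and 0.0483). In DESeq2's Wald test they had adjusted p of 0.000445 and 0.0333.

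MMP2 encodes gelatinase A, which digests denatured collagen and basement membrane collagen. It lies on chromosome 6 from 30058594 to 30086982 (ENSSSCG00000002829). MMP2 was at 234, 241 and 271 CPM at P1, 228, 408 and 226 CPM at P3, 390.2, 464 and 379 CPM at P7, and 161, 195 and 205 CPM at P28. The P7 libraries lay above all P1 and P28 libraries, and the P28 libraries lay below all others. MMP2 fell 2.20-fold from P7 to P28 (log2 −1.14, SE 0.21, edgeR adjusted p = 0.00292). Its difference from P1 to P7 was as large as that of COL15A1 but was not called (log2 0.73, SE 0.21, edgeR adjusted p = 0.0797). Without library 5 of P3 it was called (log2 0.73, adjusted p = 0.0102). The same held for the difference from P3 to P7 (log2 0.52, adjusted p = 0.19 with all libraries, and log2 0.86, adjusted p = 0.0294 without it). It also held from P1 to P28 (log2 −0.41 both ways, adjusted p = 0.196 with all libraries and 0.024 without it).

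**Figure D2:**
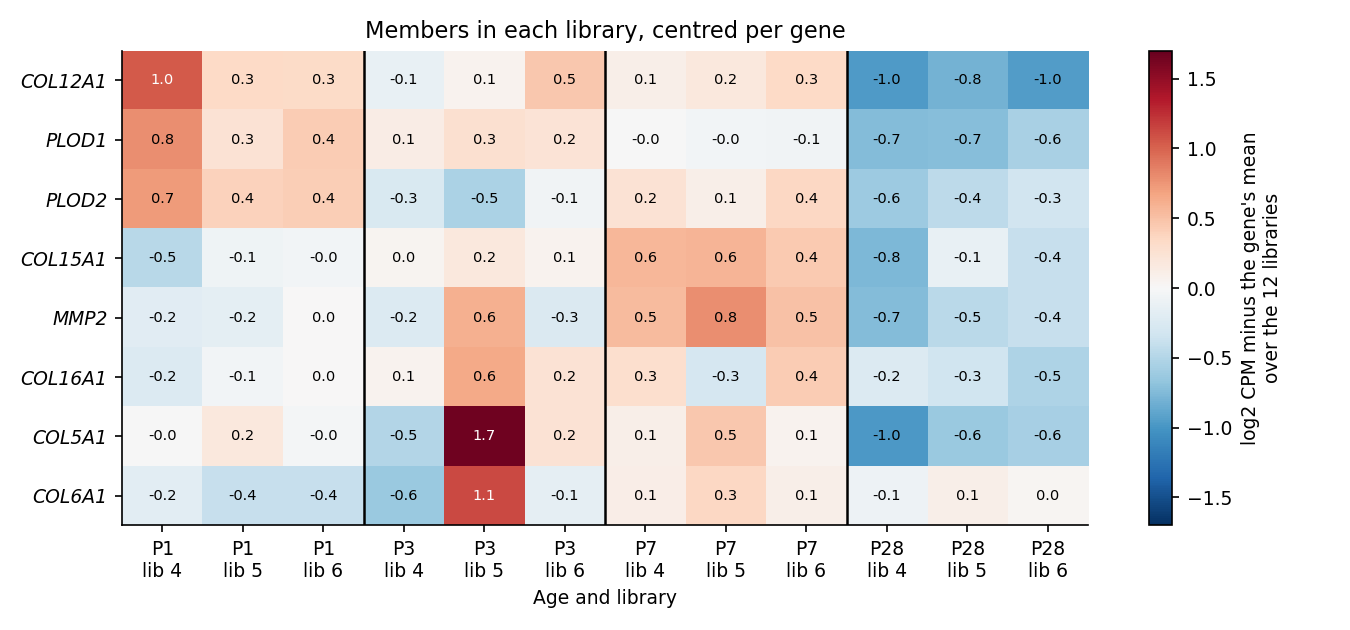
Level of each gene (rows) in each library (columns, grouped by age) as log2 CPM minus the gene's own mean over the 12 libraries. Red is above and blue below that mean. COL12A1 and PLOD1 go from red at P1 to blue at P28, COL15A1 is reddest at P7 (0.4 to 0.6) and COL5A1 and COL6A1 stand out in library 5 of P3 (1.7 and 1.1).

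Taken by comparison, P1 against P3 gave no call among the 8 genes, with 4 at an unadjusted p of 0.05 or less (COL12A1, COL16A1, PLOD1 and PLOD2) and 1, PLOD2, in DESeq2's test. In all genes tested edgeR called 0.0543% in this comparison, and 15.2% had an unadjusted p of 0.05 or less. DESeq2's test called 122 of the 5526 genes. P1 against P7 gave 1 call, the rise of COL15A1, where 2.01% of all genes were called and 1.47% were called higher. Without library 5 of P3 it gave 4, with COL6A1, PLOD1 and MMP2 added, where 5.95% of all genes were called. P1 against P28 gave 3 calls, all lower (COL12A1, PLOD1 and PLOD2), where 15.3% of all genes were called and 7.93% were called lower. Without library 5 of P3, COL5A1 and MMP2 were added and 25.6% of all genes were called. P7 against P28 gave 5 calls, all lower, with COL15A1 and MMP2 added to those 3 genes, where 18.8% of all genes were called and 10.5% were called lower. Without library 5 of P3, COL5A1 and COL16A1 were added and 28.3% of all genes were called. Thus 5 of 8 fell between P7 and P28 and none rose. The median log2 fold change over the 8 genes was −0.81 in that step, against 0.0127 over all genes tested, and −0.59 from P1 to P28, against 0.00351. These comparisons share libraries, so their calls are not separate evidence.

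P3 against P7 gave no call among the 8 genes, with 3 at an unadjusted p of 0.05 or less (COL15A1, PLOD2 and MMP2), 1 in DESeq2's test (PLOD2). Of all genes 2.21% were called by edgeR, and 18.9% had an unadjusted p of 0.05 or less. DESeq2's test called 363 of the 5526 genes from P3 to P7, against 122 in edgeR. In P1 against the mean of the 3 later ages, COL12A1 (log2 −0.79, adjusted p = 0.0192), PLOD1 (log2 −0.67, adjusted p = 0.00767) and PLOD2 (log2 −0.68, adjusted p = 0.00906) fell, where edgeR called 2.46% of all genes. Library 4 of P1 was the highest of all 12 for these 3 genes. Without it the call was kept by PLOD1 and lost by COL12A1 (log2 −0.51, adjusted p = 0.115) and PLOD2 (log2 −0.57, adjusted p = 0.0573). The falls of the 3 genes from P1 to P28 were called in all 12 fits without 1 library, with adjusted p of at most 0.00435 for COL12A1, 0.00258 for PLOD1 and 0.00898 for PLOD2. The 5 falls from P7 to P28 were also called in all 12, with adjusted p of at most 0.0351.

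By order of level, 6 of the 8 genes had P28 libraries wholly below their P1 libraries and 1, COL6A1, wholly above. Libraries without overlap between P1 and P28 were found for 44.4% of all genes tested, and wholly lower ones for 21.9%. Between P7 and P28 the libraries of 6 of the 8 genes were wholly lower and of none wholly higher, against 47% without overlap in all genes and 23.3% wholly lower. Of the 24 steps between neighbours in the order of a gene's age means, 11 had libraries without overlap, against 15.9% of such steps over all genes tested. Of the 24 edgeR called 2, against 2.84% over all genes, namely PLOD1 from P7 to P28 and COL12A1 from P3 to P28 (log2 −1.05, edgeR adjusted p = 0.00481), and P3 against P28 was added after the order was seen. In that added comparison, where 16.5% of all genes were called, COL5A1 (log2 −1.46, adjusted p = 0.0244), COL16A1 (log2 −0.69, adjusted p = 0.0263) and PLOD1 (log2 −0.88, adjusted p = 0.0016) also fell in edgeR. COL5A1 and COL16A1 lost this call without library 5 of P3 (log2 −0.64, adjusted p = 0.0565, and log2 −0.51, adjusted p = 0.0672) and without each library of P28 (adjusted p of 0.0523 to 0.0936). They also lost it in a fit of P3 and P28 alone (adjusted p = 0.0798 and 0.0579).

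**Figure D3:**
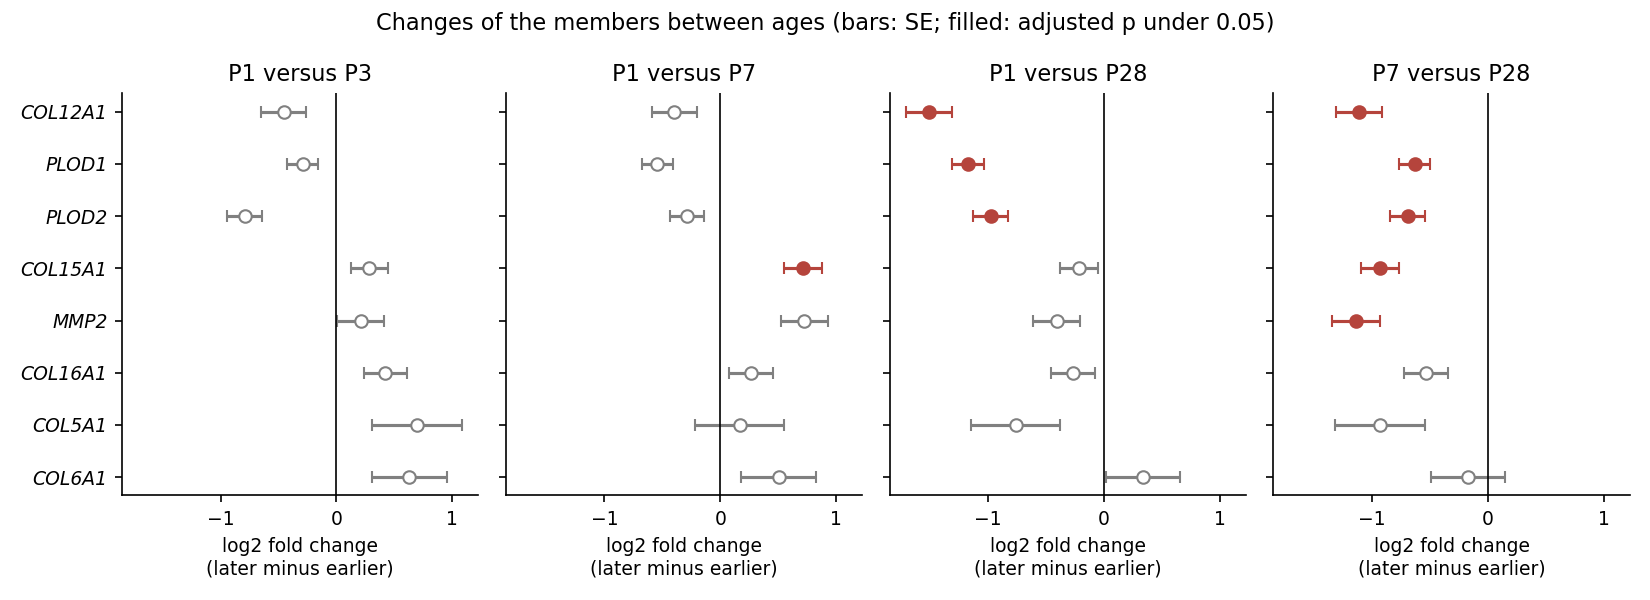
Log2 fold change of each gene (later minus earlier age) with its SE as bars in 4 comparisons. Filled red points have an edgeR adjusted p under 0.05 and open grey points do not. From P7 to P28 all 8 points lie left of 0 and 5 are filled, and the widest bars belong to COL5A1 and COL6A1.

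Per length of transcript, which allows levels of different genes to be set side by side, the order of the 8 genes differed between P1 and P28. At P1 PLOD1 (99.4 CPM per kilobase), COL15A1 (98.8) and COL5A1 (89.3) led, and PLOD2 (29.2) and COL16A1 were last. At P28 COL6A1 (89.5 CPM per kilobase) and COL15A1 (85.1) led, while PLOD1 was at 44.0 and COL12A1 and PLOD2 (14.9) were last. The 5 collagens summed to 325 to 336 CPM per kilobase in the P1 libraries and to 411 to 455 at P7. At P28 they summed to 231 to 292, below every P1 and P7 library. The P3 libraries spread widest, from 289.6 in library 4 to 664.6 in library 5.

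Within that sum the make-up changed with age. COL6A1 held 21.5 ± 1.9% of it at P1, 23.4 ± 4.9% at P3, 23.5 ± 1.0% at P7 and 34.0 ± 1.8% at P28 (SD, n = 3), and its 3 P28 libraries (32.4% to 35.9%) lay above all others. COL12A1 went the other way, from 14.1 ± 4.2% at P1 to 6.22 ± 0.49% at P28. COL15A1 had its largest mean share at P7, 37.9 ± 1.6%, but its P3 libraries ran from 19.2% to 40.1%, past the highest P7 library (39.8%). Shares of a sum are tied to each other, so a lower share of COL5A1 (19.9 ± 1.5% at P28, 27.0 ± 1.9% at P1) and a higher share of COL6A1 are not separate results.

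Ratios between members within a library do not depend on how library sizes are scaled. They were chosen after the levels had been seen, and are given without a test. The ratio of COL6A1 to COL5A1 per length was 0.80 ± 0.11 at P1, 0.81 ± 0.12 at P3, 1.01 ± 0.06 at P7 and 1.72 ± 0.17 at P28 (SD, n = 3). Its lowest P28 library, 1.56, exceeded the highest earlier one, 1.05, and in library 5 of P3, where both genes were far above the other libraries, it was 0.71. The ratio of COL15A1 to COL12A1 was 2.30 ± 0.87 at P1, 3.65 ± 0.74 at P3, 4.62 ± 0.61 at P7 and 5.18 ± 0.86 at P28, with overlap between neighbouring ages. The ratio of PLOD2 to PLOD1 was 0.21 ± 0.04 at P3 against 0.30 ± 0.02 at P1, 0.35 ± 0.03 at P7 and 0.34 ± 0.02 at P28, so the P3 libraries had the least PLOD2 for their PLOD1.

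**Figure D4:**
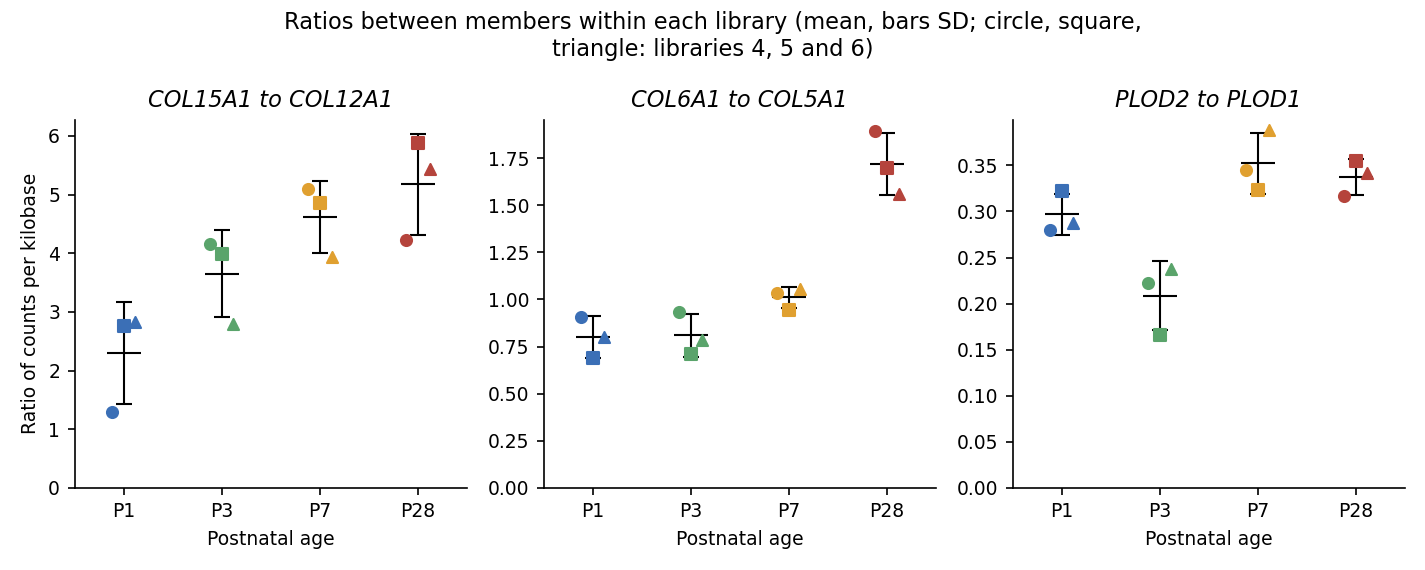
Ratio of counts per kilobase between pairs of the 8 genes in each library at P1, P3, P7 and P28, with the mean as a line and the SD as bars. The COL6A1 to COL5A1 ratio is 1.56 to 1.89 at P28 and at most 1.05 before, and the PLOD2 to PLOD1 ratio is lowest at P3.

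The members most like each other in course were COL15A1 and MMP2, whose centred log2 levels differed by 0.174 per library on average over the 12 libraries, and COL12A1 and PLOD1, at 0.214. COL6A1 and COL12A1 were farthest apart, at 0.668. The nearest genes were sought among the tested genes that carry a name. Of these, TCF21 was nearest both to COL12A1 (0.183) and to PLOD1 (0.11). TM4SF1 was nearest to PLOD2 (0.116), P4HTM to COL15A1 (0.111) and ARHGEF26 to MMP2 (0.151). LTBP4 was nearest to COL6A1 (0.11), SDC3 to COL5A1 (0.14) and RAB3IL1 to COL16A1 (0.144). The genes nearest to the mean course of the 8 were PLEKHG1 (0.104), TRADD (0.112), C2CD2 (0.116), IFFO2 (0.121) and CRTAP (0.122). The median over the named genes was 0.366. These distances describe the same 12 libraries and carry no test.

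Markers of other cell types moved with some of these results. In whole tissue, fewer cells of a type and less RNA per cell cannot be told apart. Of 10 fibroblast markers 2 had a row, TCF21 (log2 −1.05 from P1 to P28, adjusted p = 0.000678) and TNC (log2 −2.70, adjusted p = 0.00761), and both fell in edgeR. Their summed level was 138 to 447 CPM at P1, 90.2 to 284 CPM at P3, 121 to 206 CPM at P7 and 46.3 to 65.6 CPM at P28. Library 4 of P1, highest in COL12A1, PLOD1 and PLOD2, also had the highest sum, with TNC at 402.5 CPM. Mural and smooth muscle markers (2 of 8 with a row) summed to 1185 CPM in library 5 of P3 and to 209.5 to 566 CPM in the other 11, and endothelial markers (4 of 10) to 1421 CPM there and to 737 to 1101 CPM elsewhere. Leukocyte markers (5 of 11) summed to 691 to 1125 CPM at P28 and to 373 to 629 CPM before. From P7 to P28, where 5 of the 8 genes fell, edgeR called 2 of 2 fibroblast markers lower (TCF21 at log2 −0.74 and TNC at −1.98), 1 of 4 endothelial markers lower (TIE1, −0.71) and the erythroid marker EPB42 lower (−1.77). It called 2 of 6 cardiomyocyte markers higher (TNNI3, 0.71, and TNNC1, 0.54), 3 of 5 leukocyte markers higher (C1QA, C1QB and C1QC, 0.96 to 1.10) and 0 of 2 mural markers. From P1 to P28 ACTC1 fell (−0.60), and TEK (0.53) and C1QB (0.73) rose. No fit corrected for these levels, and their part in the collagen results was not tested. The erythroid marker with a row, EPB42, stayed at or under 8.74 CPM and the adipocyte marker ADIPOQ at or under 1.05 CPM, and no marker with a row was at 0 in all libraries.

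The wider collagen pathway was read from lists of 109 further genes, of which 22 had a row and 19 were tested. COL8A2, with 0 to 5 counts at P28, passed the filter on low counts only through the earlier ages, where it was higher, and is left out of the counts for P28. From P1 to P28 6 of the other 18 fell, 1 rose and 11 were not called, with a median log2 fold change of −0.48, where 15.3% of all genes were called and 7.93% were called lower. From P7 to P28 8 of the 18 fell, none rose and 10 were not called, with a median of −0.56, where 18.8% of all genes were called and 10.5% were called lower. P1 against P3 and P1 against P7 gave no edgeR call among them, with 6 and 5 of the 19 at an unadjusted p of 0.05 or less, as had 15.2% and 16.1% of all genes. From P3 to P7 1 of the 19 rose, TIMP4, where 2.21% of all genes were called, and 4 had an unadjusted p of 0.05 or less, as had 18.9% of all genes.

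COL8A1 encodes a chain of collagen VIII, a short-chain network collagen of vessel walls and endothelial matrices. It was at 214, 449 and 408 CPM in the P1 libraries and at 72.7, 67.6 and 55.9 CPM in the P28 libraries (log2 −2.45, SE 0.29, edgeR adjusted p = 0.000316). COL8A2 had only 13 to 34 counts in the P1 libraries and 0 to 5 at P28, so no fold or test is given for this other collagen VIII chain. The 2 collagen VI chains of these lists, COL6A5 and COL6A6, were not called from P1 to P28, and COL27A1, the fibrillar chain with a row, and COL18A1, the other multiplexin, were not called either. From P7 to P28 COL6A6 (log2 −1.34, adjusted p = 0.00343) and the transmembrane collagen COL23A1 (log2 −1.01, adjusted p = 0.0223) fell in edgeR, as did COL8A1, while COL6A5, COL18A1 and COL27A1 were not called.

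Among genes of chain modification and processing, ADAMTS2, which removes the amino propeptide of procollagen, held 236, 245 and 235 CPM at P1 and 95.8, 108 and 102 CPM at P28 (log2 −1.23, SE 0.14, edgeR adjusted p = 0.000316). The biosynthesis list had 6 genes with a row. CRTAP (log2 −0.60, adjusted p = 0.00908) and PPIB (log2 −0.65, adjusted p = 0.0237), which work with P3H1 in the prolyl 3-hydroxylation complex, fell, and P3H1 itself was not called by edgeR. COLGALT1, which adds galactose to the hydroxylysines that lysyl hydroxylases make, fell by 0.38 on the log2 scale (adjusted p = 0.041). TMEM38B, a cation channel of the endoplasmic reticulum, was the only gene of these lists that rose from P1 to P28, from 65.9, 64.3 and 68.1 CPM to 122, 127 and 139 CPM (log2 0.97, SE 0.27, edgeR adjusted p = 0.0308).

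Of 4 breakdown genes with a row, RECK, a membrane inhibitor of MMP2 and related proteases, fell (log2 −0.59, SE 0.12, edgeR adjusted p = 0.00699). TIMP4, a secreted inhibitor of metalloproteinases, was not called from P1 to P28. It rose from P3 to P7 (log2 1.07, edgeR adjusted p = 0.00898) and was at 48.0, 43.9 and 32.1 CPM at P7 and at 20.9, 23.7 and 22.7 CPM at P28 (log2 −0.88, edgeR adjusted p = 0.00285), a fall that MMP2 also showed in that step. The collagen receptor subunit ITGA11 was not called with all libraries. Counts of calls in these lists with 1 library left out include COL8A2 among the 19. They are therefore not ranges of the counts given above without it. With COL8A2 and all libraries, 7 were called lower and 1 higher from P1 to P28, and 9 lower from P7 to P28. With 1 library left out the calls were 5 to 9 from P1 to P28 and 7 to 12 from P7 to P28. The count was 5 (and TMEM38B not called) without library 6 of P1 or library 6 of P28. In these fits 463 and 481 of all genes were called, against 846 with all libraries. The highest counts, 9 and 12, were those without library 5 of P3, and in the same fits 25.6% and 28.3% of all genes were called. Leaving it out added COL18A1 from P1 to P28 (log2 −0.62, edgeR adjusted p = 0.0108) and added P3H2 (log2 −0.50, adjusted p = 0.0437) and ITGA11 (log2 −0.67, adjusted p = 0.0112), both lower, and TMEM38B, higher (log2 0.66, adjusted p = 0.0065), from P7 to P28 in edgeR.

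**Figure D5:**
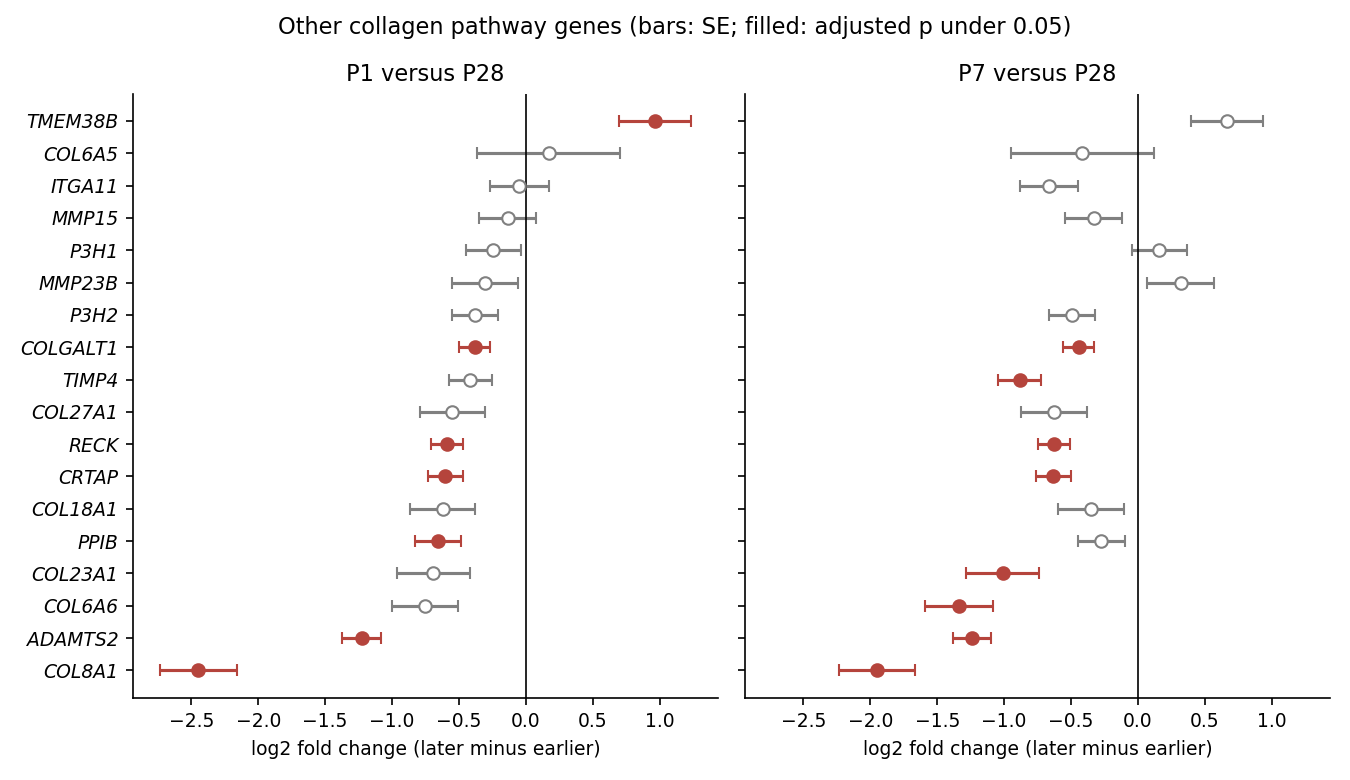
Log2 fold change (later minus earlier age) with SE bars of 18 tested genes of the wider collagen pathway (COL8A2 is not drawn), from P1 to P28 and from P7 to P28. Filled red points have an edgeR adjusted p under 0.05. COL8A1 lies farthest left, and TMEM38B is the only filled point right of 0.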

How the data were processed

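The authors deposited a table of raw read counts per gene for the 12 libraries of batch cd, without normalization. The submitters' processing notes name STAR 2.7.9a and MultiQC 1.11. The counting program, its strand setting and the annotation are not given in the sources used here, and the study's methods name a stranded total RNA kit. The notes give Sscrofa10.2 as the build of the circRNA data. The positions printed are those of the table, whose named protein-coding genes overlap their Sscrofa11.1 positions in 4332 of 4338 cases. The table ends within chromosome 2, 1 row without counts was left out, and rows named Metazoa_SRP, a multicopy RNA, took 7.09% to 19.7% of the counts. A U6 gene overlaps a member (COL12A1), with at most 2 counts. The columns give the age and a number, 4 to 6, by which libraries are named. The circRNA, small RNA and other files were not used here.

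Counts were fitted in R 4.3.3 with edgeR 4.0.16 (TMM, glmQLFit and glmQLFTest), all 4 ages in 1 fit, and p-values were adjusted by the Benjamini-Hochberg method over the 5526 genes with at least 10 counts in at least 3 libraries. The SE was taken as the absolute log2 fold change divided by the root of the F statistic, and 95% intervals used 8 residual degrees of freedom. The scripts were tested on simulated data. Centred levels are log2 CPM with a prior count of 2. Levels per kilobase divide CPM by the table's gene length. Counting error is small at these counts, so n = 3 per age limits the precision. DESeq2 1.42.0 and plots (Python 3.11.15, matplotlib 3.10.9) were used as well. Alternatives were DESeq2's size factors and test, no filter, the study's thresholds (p of at most 0.05 before adjustment, with a log2 change beyond 0.5 either way), only the ages compared, the library number as a block, no Metazoa_SRP rows, and each library left out.

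All 8 members are named. Of the wider collagen lists, genes with an adjusted p under 0.05 from P1 to P28 are named, at most the 10 with the smallest p, plus genes that define a list. TIMP4, P3H2, COL6A6 and COL23A1 were named after their values at other steps were seen, as were single cell type markers. For likeness, the 5 genes nearest to the mean course of the members and the nearest gene of each member are named. The members and lists were chosen with earlier results of these data known.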

Additional observations from a re-analysis of the deposited data

How the results depend on the processing

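Of the log2 fold changes of the 8 genes, 355 of the values under alternatives that kept all libraries had the direction and call of the values reported above, 26 became calls, 2 lost a call and 1 reversed. With 1 library left out these were 625, 17, 17 and 13, and none of the reversed values had been called. DESeq2's test called 1 member in P1 against P3, 3 in P1 against P7 and 1 in P3 against P7, in place of 0, 1 and 0, and 6 in P7 against P28, with COL16A1 added (adjusted p = 0.0422). The study's thresholds called 1, 3 and 2, and 7 in P7 against P28, with COL5A1 and COL16A1 added. Over the 4 ages DESeq2's test, the study's thresholds and no filter each called 7 in place of 5. No filter on low counts called 1 in P1 against P3. Fits of only the ages compared called 3 in P1 against P7 and 5 in P1 against P28 (3 above). Over all genes these 2-age fits called 351 and 1186, against 111 and 846. In P7 against P28 fits of only these ages added COL5A1 (adjusted p = 0.00292) and COL16A1 (0.0421). Such fits cannot be made for P1 against the later ages or for the test over 4 ages. With 1 library left out, members called were 0 to 1 in P1 against P3, 0 to 4 in P1 against P7, 3 to 5 in P1 against P28, 1 to 3 in P1 against the later ages, 0 to 1 in P3 against P7, 5 to 7 in P7 against P28 and 5 to 7 over the 4 ages. DESeq2's size factors changed no count of members called.

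Log2 fold changes that reversed with 1 library left out ran from −0.13 to 1.06 (COL5A1), −0.053 to 0.94 (COL6A1) and −0.13 to 0.38 (MMP2) from P1 to P3, from −0.24 to 0.15 (COL5A1) in P1 against the later ages, from −0.90 to 0.30 (COL5A1), −0.44 to 0.56 (COL6A1), −0.072 to 0.23 (COL12A1) and −0.32 to 0.055 (COL16A1) from P3 to P7, and from −0.61 to 0.39 (COL6A1) from P3 to P28. The reversed value was the one without library 5 of P3 for all of these except COL12A1 (library 4 of P3 or library 6 of P7). COL16A1 also reversed without library 5 of P7, and COL5A1 against the later ages without library 6 of P1 or library 5 of P7. The cause was not tested.

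Library numbers did not pair the libraries over all ages. Of 18 same-numbered pairs 5 had a correlation over 0.1 (range −0.186 to 0.331), and 6 of 12 libraries lay nearest to their own number. Between P1 and P28, however, all 3 same-numbered pairs were over 0.1 (0.138 to 0.331), a hint from the data only, since the labels tie no animals across ages. With the number as a replicate block the members called were 0, 1, 3, 3, 0, 5 and 5 in the comparisons as ordered above and over the 4 ages, equal to those without it. For P1 against P28 the block gave the falls of COL12A1, PLOD1 and PLOD2 and 784 calls over all genes, against 846. In this block fit COL5A1 in P1 against the later ages was −0.036, COL15A1 and MMP2 were called from P3 to P28 (adjusted p = 0.034 and 0.0497), and over all genes P1 against P3 gave 7 calls and P3 against P7 gave 77.

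Calls over all genes moved as well. DESeq2's test gave 122, 364, 291, 363 and 1786 in P1 against P3, P7 and the later ages, P3 against P7 and the 4 ages, where edgeR gave 3, 111, 136, 122 and 1183. The study's thresholds gave 585, 648, 520, 717 and 2072 (by p alone) there and 1276 in P1 against P28 (edgeR 846). No filter gave 34 and 194 in P1 against P3 and P7. Fits of only the ages compared gave 351 in P1 against P7, 15 in P3 against P7 and 1681 in P7 against P28 (edgeR 1040). With 1 library left out, calls ran from 1 to 16 (P1 against P3), 21 to 328 (P7), 463 to 1412 (P28), 37 to 240 (later ages), 16 to 246 (P3 against P7), 580 to 1558 (P7 against P28) and 719 to 1703 (4 ages). In P1 against P7, P28 and the later ages, P7 against P28 and the 4 ages the highest count was that without library 5 of P3.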
